A study of Ovis aries with 26 samples.

Results

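GNG11, SLC44A5 and MSMB are 3 of the 24478 genes counted in single cells of the developing sheep pancreas, and they were picked because earlier work on these counts showed their duct levels to differ between cloned CFTR-/- (CF) animals and controls. The picking used the differences between genotypes and between ways of breeding, so those differences are described here without a test, as are their changes with age in ducts. The tests concern age in other lineages and genes that are not among the 3. Levels of the 3 genes were also checked for single outlying animals within a group. The name under which the genes were grouped, duct genes lost or gained in clones, held in part. GNG11 was high in duct-like cells of naturally bred CF animals as well as of clones, and MSMB was low in naturally bred CF lambs at term as well as in the cloned lamb, so the 3 are called by their names below.

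GNG11 encodes a gamma subunit of heterotrimeric G proteins. Gamma subunits are anchored in membranes by a lipid group, pair with a beta subunit and pass on signals from receptors that couple to G proteins, and GNG11 is a familiar transcript of endothelial cells. SLC44A5 belongs to the choline transporter-like family of membrane proteins, and choline is a building block of phosphatidylcholine, the main phospholipid of cell membranes. MSMB encodes beta-microseminoprotein, a small secreted protein best known from the prostate and also made by other mucosal epithelia. Pancreatic ducts are the epithelial tubes that carry the enzymes of acinar cells to the gut and secrete bicarbonate, and CFTR, a chloride and bicarbonate channel, sits in their cells.

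Droplet libraries of the whole pancreas (26 libraries of 23 animals in 8 groups) were compared. At 80 days of gestation the non-CF group held 4 male fetuses, 2 labelled WT and 2 labelled HZ, the latter with 1 WT and 1 exon 11 disrupted CFTR allele, and 3 of the 4 were triplets. The CF fetuses of that age were 3 male clones. All non-CF and WT animals were naturally bred, so that at 80 days genotype and cloning cannot be told apart. At 120 days there were 3 WT fetuses (2 male, 1 female), 4 male cloned CF fetuses and 2 female naturally bred CF twins, and at term 4 WT lambs (3 male, 1 female), 2 female naturally bred CF lambs and 1 male cloned CF lamb. All clones were made by nuclear transfer from a single male neonatal fibroblast line with CFTR disrupted in exon 2, so that they are copies of 1 genome and their spread is not that of unrelated animals, and the sex of the CF animals cannot be told apart from how they were bred. The 3 cloned fetuses of 80 days came from 2 recipient ewes and those of 120 days from at most 3. As with the triplets and twins, some fetuses of a group thus shared a ewe. The study's animal numbers of WT donors 1 and 2 of 120 days differ only in the last digit, as do those of the triplets. Fetuses that shared a ewe were counted here as separate animals. For 3 animals 2 libraries were made, and these were summed, so that n counts animals throughout.

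Of 109501 deposited barcodes, 79510 were kept (over 200 and under 6000 genes, under 25% mitochondrial UMIs), and libraries held 7841217 to 171256169 UMIs (unique molecular identifiers, each counting 1 captured transcript). Cells were sorted into lineages by lists of marker genes that contain none of the 3 genes. The duct-like class held 11441 cells, 78 to 1480 per animal, with a median of 3874 to 18979 UMIs per cell. Its 10 genes of highest fold against all other cells included 4 of the duct markers (MMP7, SLC4A4, KRT7 and LOC101117946, which is KRT19) and no marker of another lineage, and the 12 duct markers summed to between 4363 and 13332 CPM (each gene as a share of all UMIs, scaled to 1000000) in every animal. The cells were sorted by these same lists, so both results were in part set by the sorting. The 12 acinar markers summed to 374 to 15624 CPM in the same duct-like cells. At term they were above the duct markers in WT donor 2 (15624 against 10075 CPM) and naturally bred CF donor 1 (12768 against 10194 CPM). No 2 libraries shared over 0.458% of the barcodes of the smaller one. Levels below are CPM, after all cells of a lineage from 1 animal were added up. In such sums fewer cells that use a gene and less RNA per cell cannot be told apart, which is why shares of cells are given beside them.

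GNG11 was the gene that was high in CF ducts. In the non-CF fetuses at 80 days its duct level was 1.72, 5.38, 1.45 and 0.985 CPM (donors 1 to 4), and in the cloned CF fetuses of that age it was 294, 206 and 292 CPM. Every clone lay far above every control, and the group means, 264 ± 50.3 CPM (SD, n = 3) against 2.38 ± 2.02 CPM (SD, n = 4), differed 111-fold. Among all genes tested at that age, 8.69% had higher levels in clones than in controls with no overlap. The fitted log2 difference from the model over all groups was 7.15 ± 1.15 (SE).

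At 120 days GNG11 stood at 3.55, 0.920 and 4.67 CPM in ducts of the 3 WT fetuses. The 4 cloned CF fetuses had 87.4, 167, 153 and 18.6 CPM, and the naturally bred CF twins (donors 5 and 6) had 84.4 and 52.4 CPM. Both CF groups were above all WT fetuses, and they overlapped with each other because cloned donor 4 was lower than both twins. The mean was 106 ± 68.0 CPM in clones (SD, n = 4), 68.4 ± 22.6 CPM in the twins (SD, n = 2) and 3.05 ± 1.93 CPM in WT (SD, n = 3), which is 34.9-fold and 22.4-fold above WT. On the log2 scale the fitted difference from WT was 4.78 ± 1.08 (SE) for clones and 4.24 ± 1.13 (SE) for the twins, and clones minus twins gave 0.54 ± 0.96 (SE). Shares of all genes that were higher without overlap were 4.16% for clones against WT and 19.1% for the twins against WT, the latter larger because only 2 animals had to be above 3.

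At term no GNG11 UMI was found in the duct-like cells of WT donors 1 and 3, where 3 UMIs would be 0.942 and 1.89 CPM. WT donor 4 had 1.56 CPM and WT donor 2 had 42.8 CPM. The naturally bred CF lambs had 137 and 517 CPM and the cloned CF lamb had 460 CPM. All 3 CF lambs were above all 4 WT lambs, but WT donor 2 was above cloned CF donor 4 of the 120-day group, so the genotypes did not separate completely when ages were pooled. The fitted log2 difference from WT was 4.69 ± 0.97 (SE, 2 against 4 lambs) for naturally bred CF and 5.35 ± 1.08 (SE, 1 against 4 lambs) for the clone, whose error rests on the spread of the other groups. Both values turned on WT donor 2, without which they became 9.94 and 10.59, figures fitted against a group almost empty of GNG11. Without overlap, 7.85% of all genes were higher in naturally bred CF than WT and 17.6% were higher in the clone than WT. For the animals with 2 libraries the GNG11 duct level was 80.6 and 94.8 CPM (cloned CF donor 1 at 120 days), 149 and 126 CPM (naturally bred CF donor 1 at term) and 447 and 473 CPM (the cloned lamb), a much smaller spread than that between animals.

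**Figure D1:**
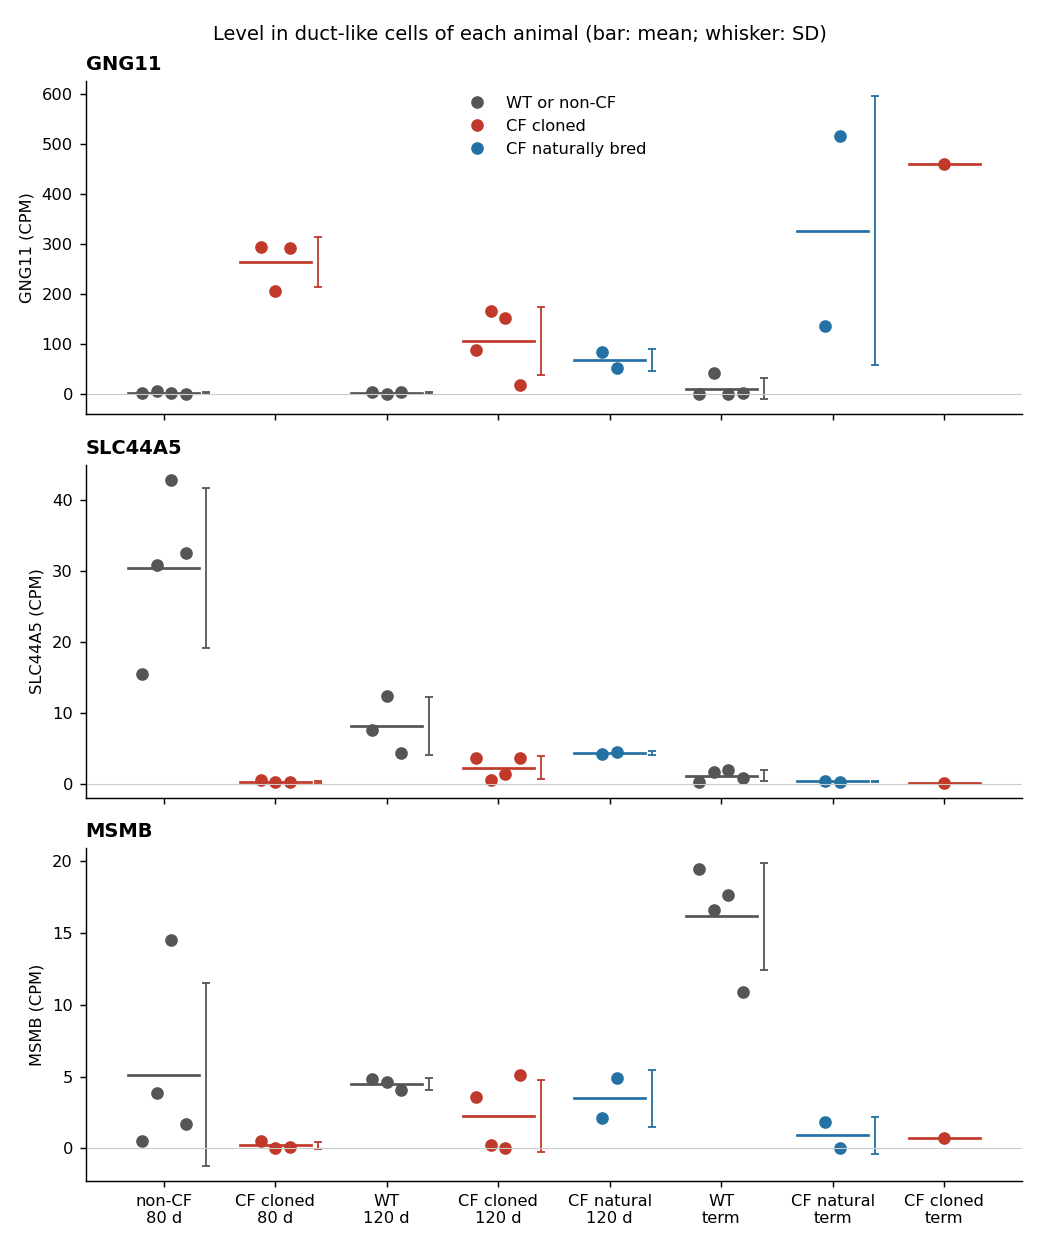
Levels in duct-like cells, in CPM on linear axes starting below 0 so that points at 0 show, with 1 point per animal, a bar at the group mean and a whisker of 1 SD where a group has more than 1 animal. GNG11 is above 18 CPM in all 12 CF animals (red cloned, blue naturally bred) and under 6 CPM in 10 of the 11 non-CF animals (grey), SLC44A5 falls from the 80-day non-CF group to term, and MSMB is at 10.9 to 19.5 CPM in the 4 WT lambs at term, a range that 14.5 CPM in 1 non-CF fetus of 80 days also reaches.

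The share of duct-like cells with at least 1 GNG11 UMI separated the same groups. It was 82.7%, 78.5% and 86.1% in the cloned CF fetuses at 80 days against 1.21% to 2.97% in the non-CF fetuses, 11.1% to 57.3% in clones and 27.0% to 30.7% in the twins at 120 days against 0.688% to 2.34% in WT, and 40.9%, 86.2% and 83.1% in the CF lambs at term. In the WT lambs it was 0 of 298 cells (which allows a share of up to 1.01%), 13.2%, 0 of 225 cells (up to 1.33%) and 0.870%. In CF animals the duct-like cells that had GNG11 held 1.79 to 7.59 UMIs of it on average. Since depth differed, each cell was also thinned to 3000 UMIs and shallower cells were left out (62 of 1424 in 80-day clones, 51 of 854 in 80-day non-CF, 147 of 1336 in WT at term). Thinned shares were 4.21% to 71.9% over the 12 CF animals and 0% to 7.68% over the 11 others.

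Acinar-like cells were read as a measure of free RNA and miscalled cells, on the assumption, which was not tested, that acinar cells do not use GNG11. Their own level differed between groups, with a mean of 6.05 CPM in 80-day clones and 1.32 CPM in non-CF fetuses. They had a GNG11 UMI in 0% to 2.29% of thinned cells in CF animals and in 0% to 2.61% in the others, and in 2.08% to 9.99% and 0.289% to 6.34% of unthinned cells at median depths of 11948 to 42970 UMIs. In each CF animal the thinned duct share was above the acinar share of that animal. WT donor 2 at term had 7.68% in duct-like and 2.61% in acinar-like cells. In the other 10 non-CF and WT animals the thinned shares were 0% to 2.30% in duct-like and 0% to 0.728% in acinar-like cells, with the duct share above the acinar share in 5 animals and below it in 4, and the duct shares rest on at most 8 cells with GNG11. These intervals and limits cover counting error only.

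**Figure D2:**
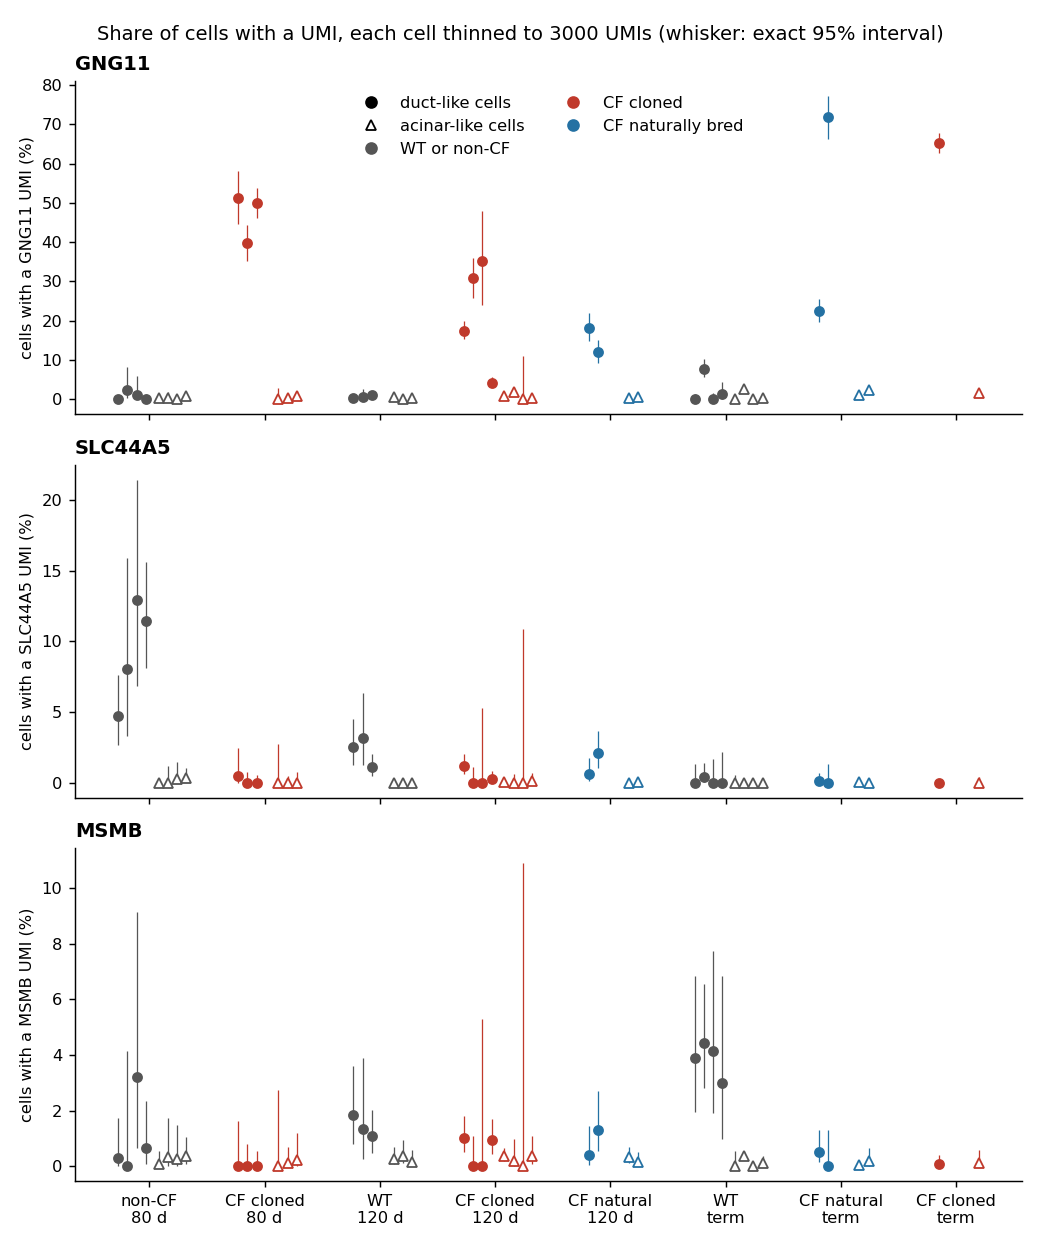
Share of cells with at least 1 UMI of each gene, in percent on linear axes, after every cell was thinned to 3000 UMIs, with filled circles for duct-like and open triangles for acinar-like cells, 1 of each per animal, and whiskers for the exact 95% binomial interval. GNG11 reaches 71.9% of duct-like cells in CF animals, SLC44A5 reaches 12.9% in non-CF fetuses at 80 days and MSMB 4.41% in WT lambs at term.

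GNG11 is abundant in endothelial, stromal and mural cells, so the markers of these lineages were read in the duct-like sums. The 9 endothelial markers summed to 3.33 to 83.0 CPM in CF ducts and 2.51 to 41.2 CPM in the others, and the 9 stromal markers to 22.7 to 202 CPM and 4.67 to 190.4 CPM. For each CPM of endothelial markers, endothelial-like cells held 0.0786 to 0.310 CPM of GNG11, whereas CF ducts held 4.14 to 38.1. For stromal markers the figures were 0.00355 to 0.0180 in stromal-like cells and 0.700 to 8.66 in CF ducts, and for the 9 mural markers 0.00226 to 0.0277 in mural-like cells and 0.13 to 1.5 in CF ducts. In all 12 CF animals GNG11 was more abundant in ducts, relative to each of these lists, than in any animal's cells of that lineage. The same was so in ducts of 1 of 11 non-CF and WT animals for the endothelial list, 6 for the stromal list and 4 for the mural list, where the ratios ran up to 1.04, 0.333 and 0.395. WT donor 2 at term exceeded the lineage for all 3 lists, with 1.04, 0.225 and 0.395. Cells were sorted by these same lists, which keeps cells rich in them out of the duct-like class. The ratios are therefore in part set by the sorting, and the part of RNA from other cells was not tested. The mural list was at 28.3 to 215 CPM in non-CF and WT ducts and at 137 to 1814 CPM in CF ducts of all ages. At 80 days clones 2 and 3 (137 and 208 CPM) lay within the non-CF range of 133 to 215 CPM, and clone 1 had 701 CPM. At 120 days the twins (140 and 141 CPM) and clone 4 (143 CPM) lay within the WT range of 88.2 to 210 CPM. Clones 1 to 3 of that age had 338 to 503 CPM. At term CF lambs had 452 to 1814 CPM and WT lambs 28.3 to 110 CPM. Most of the sum in CF lambs was TAGLN, an actin-binding protein of contractile cells. TAGLN alone reached 1719 CPM in the cloned lamb, and its part in the GNG11 level was not tested. CNN1, another protein of contractile cells, had 28.7 to 190 CPM in 80-day clones and 5.80 to 31.0 CPM in non-CF fetuses, 26.2 to 148 CPM in clones, 1.37 to 2.32 CPM in the twins and 8.99 to 51.2 CPM in WT at 120 days, and 27.4 to 85.6 CPM in naturally bred CF, 46.8 CPM in the clone and 0 to 5.46 CPM in WT at term. ACTA2, smooth muscle actin, had 8.31 to 22.8 CPM in 80-day clones, which overlapped with 3.84 to 14.8 CPM in non-CF fetuses. At 120 days ACTA2 had 2.57 to 10.1 CPM in clones, which overlapped with 0.836 to 5.20 CPM in WT. The twins had 7.42 and 8.998 CPM of it. At term ACTA2 had 2.72 and 36.6 CPM in naturally bred CF, 22.2 CPM in the clone and 0.630 to 3.00 CPM in WT. RGS5 and PDGFRB, also on the mural list, were at 0 to 7.20 and 0 to 1.44 CPM in all ducts. NOTCH3 was at 22.1 to 31.7 CPM in 80-day clones and 41.6 to 59.9 CPM in non-CF fetuses. At 120 days it was at 46.4 CPM in the twins and 25.8 to 33.4 CPM in WT. The mural markers other than TAGLN and CNN1 summed to 29.9 to 71.0 CPM in CF ducts and 21.4 to 81.5 CPM in the others.

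Within an animal, duct-like cells with and without a GNG11 UMI could be compared. The 77 duct-like cells with GNG11 in WT donor 2 at term carried 1423 CPM of stromal, mural and endothelial markers together, against 118 CPM in its 506 duct-like cells without GNG11, a ratio of 12. Over the 9 non-CF and WT animals with such cells that ratio was 0.668 to 17.2 with a median of 3.45, and in all of them but WT donor 2 at term and WT donor 3 at 120 days it rests on 2 to 7 cells with GNG11. In the 12 CF animals it was 0.329 to 3.17 with a median of 1.51, so that 5 of the 9 lay above the CF range and 4 within it. The sum includes TAGLN, which was high in many CF ducts, and the ratio was not taken without TAGLN, so the 2 sets of animals are not directly comparable. The 0.329 is that of naturally bred CF donor 2 at term, whose 41 cells without GNG11 carried 4428 CPM. In CF animals the cells with GNG11 had 1.03 to 1.44 times the duct markers of the cells without. GNG11 in the ducts of WT donor 2 thus moved with markers of other lineages, and their part in its level was not tested. That library also stood apart in acinar-like cells, with 7.10 CPM of GNG11 where the other WT lambs had 0.0807, 0.273 and 0.540 CPM.

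**Figure D3:**
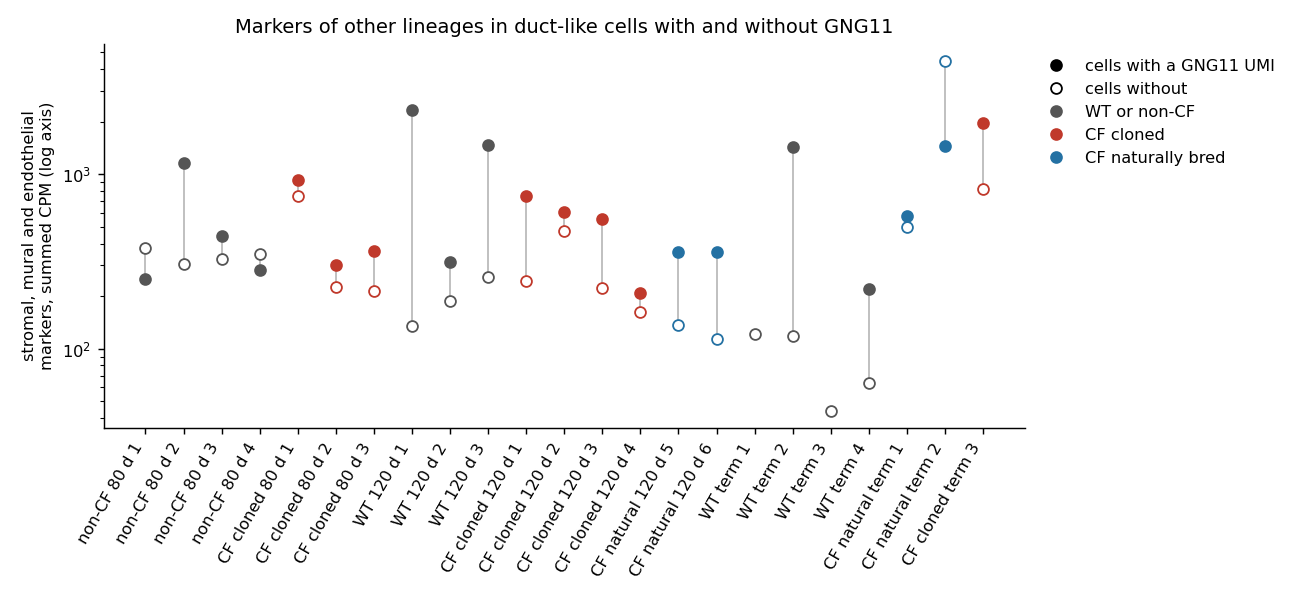
Summed CPM of stromal, mural and endothelial markers (log axis) in the duct-like cells of each animal that had a GNG11 UMI (filled) and that had none (open), joined by a line. In WT donor 2 at term the filled point is 12 times the open one, in the CF animals 0.329 to 3.17 times and in the 9 non-CF and WT animals with such cells 0.668 to 17.2 times, and WT donors 1 and 3 at term have no duct-like cell with GNG11.

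SLC44A5 was low in the ducts of 80-day clones. The non-CF fetuses at 80 days had 15.5, 30.7, 42.8 and 32.5 CPM in ducts, and the cloned CF fetuses had 0.480, 0.277 and 0.212 CPM, each from 2 UMIs. The groups did not overlap, as for 11.9% of all genes that were lower in clones at that age. Over the pooled counts (6 UMIs against 294) the level was 94.4-fold lower in clones, with a 95% counting interval of 42.8 to 259. Such intervals, here and below, treat UMIs as the units and leave out the spread between animals. They are no test of a difference on which a gene was picked. The fitted log2 difference was -6.50 ± 0.65 (SE). SLC44A5 UMIs were found in 11.2% to 37.9% of non-CF duct-like cells and in 0.289% to 0.823% of those of clones, and after thinning in 4.72% to 12.9% and 0% to 0.446%. Acinar-like cells had 0% to 0.364% after thinning in the non-CF fetuses and 0% in the clones. A single thinned duct-like cell of 1 clone accounts for the 0.446%. The 2 HZ fetuses, with 30.7 and 32.5 CPM, lay between the 2 WT fetuses.

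At 120 days the gap in SLC44A5 was narrower. WT ducts had 7.53, 12.4 and 4.35 CPM, cloned CF ducts had 3.60, 0.489, 1.44 and 3.59 CPM, and those of the naturally bred CF twins had 4.18 and 4.50 CPM. All clones were below all WT fetuses (4.88% of all genes did so) and below both twins (17.4% of all genes did so), while the twins overlapped with WT donor 3. The fitted log2 difference from WT was -1.48 ± 0.48 (SE) for clones and -0.80 ± 0.57 (SE) for the twins, and clones minus twins gave -0.68 ± 0.55 (SE), which is little more than its error. After thinning, the twins' difference from WT shrank to -0.00. At term SLC44A5 was nearly absent from every duct, with 0.314, 1.64, 1.89 and 0.778 CPM in WT, 0.404 and 0.265 CPM in naturally bred CF and 0.155 CPM in the clone, from 1 to 6 UMIs each. The naturally bred CF lambs overlapped with WT, and over the pooled counts their level was 3.1-fold lower with a counting interval of 0.992 to 11.4. The clone was below every WT lamb, as 29.7% of all genes were, and its level was 7.30-fold lower over the pooled counts with an interval of 1.93 to 40.7, from 3 UMIs against 11.

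MSMB was low in the ducts of most fetuses. At 80 days the non-CF fetuses had 0.492, 3.84, 14.5 and 1.72 CPM and the cloned CF fetuses had 0.480, 0 and 0.106 CPM, from 2, 0 and 1 UMIs. The groups did not overlap, as for the 11.9% of all genes that were lower in clones, but clone 1 and non-CF donor 1 had nearly the same level. Non-CF donor 3 stood well above the rest of its group, with MSMB in 8.74% of its duct-like cells. The pooled counts (3 UMIs against 34) were 21.8-fold lower in clones, with a counting interval of 6.86 to 111. The fitted log2 difference of -4.55 ± 1.26 (SE) became -3.20 without non-CF donor 3. After thinning, MSMB was found in 0% to 3.23% of non-CF duct-like cells and in no cell of the clones, against 0.0959% to 0.364% of acinar-like cells in the former.

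In fetuses of 120 days MSMB showed no separation by genotype. WT ducts had 4.81, 4.6 and 4.03 CPM, those of cloned CF fetuses had 3.60, 0.244, 0 and 5.13 CPM and those of the twins had 2.09 and 4.89 CPM. Clones 1 and 4 were near the WT level and clone 2 was below it. Clone 3 had no MSMB UMI, but its 78 duct-like cells held so few UMIs in all that 3 would be 4.32 CPM, and a level like that of WT was not distinguishable there. Clones minus WT gave a fitted log2 difference of -0.58 ± 0.79 (SE) and the twins minus WT -0.34 ± 0.96 (SE), the second of which turned to 0.14 without donor 5.

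At term MSMB separated WT from CF, as GNG11 did in the opposite direction. WT lambs had 19.5, 16.6, 17.6 and 10.9 CPM in ducts, naturally bred CF lambs had 1.82 and 0 CPM, and the cloned CF lamb had 0.723 CPM. Every CF lamb was below every WT lamb, as 12.1% of all genes were for the naturally bred lambs and 29.7% for the clone. The pooled counts were 12.9-fold lower in naturally bred CF (18 UMIs against 165, counting interval 7.91 to 22.3) and 23.5-fold lower in the clone (14 UMIs, counting interval 13.6 to 43.9). All 18 UMIs came from naturally bred CF donor 1, so the first interval holds no spread between lambs. The fitted log2 differences were -3.67 ± 1.05 (SE) and -4.21 ± 1.42 (SE), and the first ranged from -9.44 to -2.96 when 1 lamb was left out, the extremes coming from leaving out either naturally bred CF lamb. MSMB UMIs were found in 5.22% to 10.7% of WT duct-like cells and 0% to 1.67% of CF ones, and after thinning in 2.99% to 4.41% and 0% to 0.515%. The acinar-like share of the WT lambs after thinning was 0% to 0.354%, below the duct share in each lamb. Duct-like cells of WT lambs were shallower (medians of 3874 to 9363 UMIs) than those of CF lambs (10272 to 11591 UMIs).

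The change with age in ducts is given without a test as well, since the duct levels of controls and clones at each age are the values on which the genes were picked. In non-CF and WT duct-like cells SLC44A5 was lower at each later age. The levels of the 3 groups did not overlap, at 15.5 to 42.8, 4.35 to 12.4 and 0.314 to 1.89 CPM, as for 16.3% and 5.29% of all genes that were lower in these steps. The fitted log2 change was -1.77 ± 0.47 (SE) from 80-day non-CF to 120-day WT ducts and -2.74 ± 0.59 (SE) from 120 days to term. MSMB went from 4.48 ± 0.40 CPM (SD, n = 3) at 120 days to 16.2 ± 3.70 CPM (SD, n = 4) at term in all 4 lambs without overlap (5.57% of all genes did so), with a fitted log2 change of 1.83 ± 0.80 (SE). GNG11 overlapped between ages in these animals.

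In cloned CF duct-like cells SLC44A5 went from 0.323 ± 0.140 CPM (SD, n = 3) to 2.28 ± 1.57 CPM (SD, n = 4) without overlap (5.54% of all genes), a fitted log2 change of 3.24 ± 0.67 (SE). For MSMB the fitted log2 change was 4.26 ± 1.20 (SE), with clones 2 and 3 at 0.244 and 0 CPM, so that the groups overlapped, and it rests on 3 UMIs at 80 days. GNG11 went from 264 to 106 CPM without overlap (14.2% of all genes were lower in this way), with a fitted log2 change of -1.29 ± 0.82 (SE).

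Across lineages the 3 genes differed in where they were found. GNG11 was highest in endothelial-like cells, with 1773 ± 598 CPM (SD, n = 23), where 78.6% to 97.3% of cells had a UMI in every animal. Stromal-like cells had 371 ± 113 CPM (SD, n = 22) and mural-like cells 255 ± 105 CPM (SD, n = 21), a difference within the spread, and myeloid-like cells had 121 ± 93.2 CPM (SD, n = 16), duct-like cells 110 ± 151 CPM (SD, n = 23) and Schwann-like cells 87.4 ± 34.0 CPM (SD, n = 12), which overlapped widely. Endocrine-like (7.87 ± 6.54 CPM, SD, n = 21), lymphoid-like, acinar-like (3.21 ± 2.73 CPM, SD, n = 23) and erythroid-like cells were far lower. The duct was the lineage whose place depended on genotype. Its median was 160 CPM over 12 CF animals and 1.56 CPM over 11 others, while the medians of endothelial-like cells were 1957 and 1897 CPM, of stromal-like cells 334 and 435 CPM and of mural-like cells 266 and 214 CPM.

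Endocrine-like cells showed a smaller difference of GNG11 in the same direction. At 80 days they had 24.6, 14.2 and 19.7 CPM in the clones and 3.48, 4.39, 5.71 and 2.98 CPM in the non-CF fetuses, without overlap, as for 12.9% of all genes, with a fitted log2 difference of 2.10 ± 0.40 (SE). At 120 days the clones had 15.3, 11.0 and 6.44 CPM (the fetus with under 20 such cells left out), the twins 3.15 and 6.77 CPM and WT 1.83, 1.57 and 2.07 CPM. Both CF groups were above all WT fetuses, as 7.83% of all genes were for the clones and 12% for the twins. At term the WT lambs with enough cells had 14.0, 4.22 and 1.40 CPM, a range that held the naturally bred CF lambs (11.8 and 7.87 CPM) and the cloned lamb (2.67 CPM). Acinar-like cells had 1.53 to 9.92 CPM in CF animals and 0.0807 to 7.10 CPM in the others. Whether RNA from other cells of the same suspension had a part in these low levels was not tested.

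SLC44A5 had its highest mean in the duct, though not in every group. The mean over animals was 7.39 ± 11.9 CPM (SD, n = 23) in duct-like cells, next came Schwann-like cells with 2.20 ± 3.14 CPM (SD, n = 12), and acinar-like, endocrine-like and endothelial-like cells had 0.127, 0.126 and 0.247 CPM. The duct level was above the acinar level in 23 of 23 animals and above the endocrine level in 19 of 21, but above the stromal level in 17 of 22 and above the Schwann-like level in 7 of 12. In the 80-day clones the duct mean of 0.323 CPM was below those of stromal-like (1.17 CPM), mural-like (1.23 CPM) and Schwann-like cells (1.05 CPM), from 3 to 16 UMIs each. In Schwann-like cells the highest levels were 9.97 CPM (WT donor 1 at 120 days), 5.76 CPM (clone 1 at 120 days) and 4.04 CPM (non-CF donor 1 at 80 days), and 6 of the 12 animals had none, so no order of groups could be read there.

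MSMB was found in epithelial lineages. Endocrine-like cells had 6.51 ± 5.18 CPM (SD, n = 21) and duct-like cells 5.12 ± 6.19 CPM (SD, n = 23), which did not differ beyond their spread, and acinar-like cells had 0.709 CPM. It was at 0 or near 0 in stromal-like, mural-like and all blood lineages. The highest level by far was in intestine-like cells, a class of 164 cells that came wholly from WT donor 4 at term (147 cells, 119.5 CPM) and non-CF donor 1 at 80 days (17 cells, 1203 CPM). In these 2 animals duct MSMB (10.9 and 0.492 CPM) was the lowest of its group.

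Endocrine MSMB did not follow duct MSMB. It was 9.90, 6.00, 5.92 and 13.7 CPM in non-CF and 7.65, 5.73 and 11.4 CPM in cloned CF fetuses at 80 days, groups that overlapped while the ducts of the same clones held next to none. At 120 days WT had 0.229, 0.784 and 1.52 CPM, clones 6.04, 4.91 and 21.2 CPM and the twins 12.6 and 4.77 CPM, so that here both CF groups were above WT, as 7.83% and 12% of all genes were for clones and twins, the opposite of the duct at term. The WT lambs at term had 1.53, 0.649 and 9.82 CPM and the CF lambs 3.56, 3.15 and 5.60 CPM. Endocrine-like cells were also split by the hormone that gave over 1% of a cell's UMIs. In the 10 animals with at least 20 cells led by PPY, the pancreatic polypeptide, and 20 led by GCG, glucagon, the share of cells with MSMB was higher in the PPY cells in 10 of 10, with medians over animals of 10% and 0.847%. Against cells led by SST, somatostatin, it was higher in 10 of 10 animals as well, with medians of 8.68% and 2.41%. The PPY cells were deeper than the GCG cells in 6 of these animals and deeper than the SST cells in 8, so depth moved with the second comparison and its part was not tested. Acinar-like cells had MSMB in 0.144% to 6.13% of unthinned cells at higher depth, a range that holds the medians of the GCG and SST cells.

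**Figure D4:**
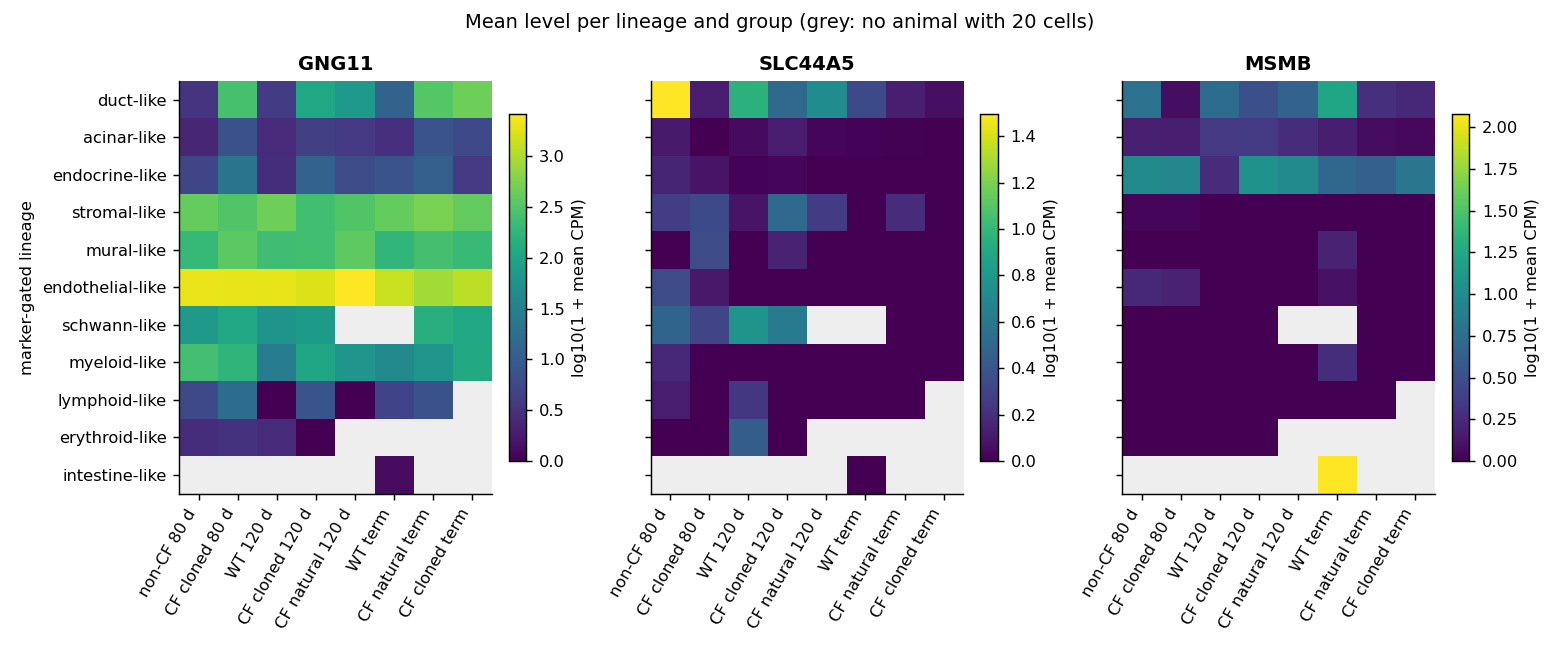
Mean level of each gene per lineage (rows) and group (columns) as log10 of 1 plus the mean CPM over animals with at least 20 cells, each panel with its own colour scale and grey where no animal had 20 cells. GNG11 is high in endothelial-like, stromal-like and mural-like cells of all groups and in duct-like cells of CF groups, SLC44A5 is highest in non-CF ducts at 80 days, and MSMB is in duct-like, endocrine-like and intestine-like cells.

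No age change of the 3 genes passed in the 9 other lineages that could be fitted, but SLC44A5 and MSMB were too low for a test in most of them. With the duct included, GNG11 was tested in 9 of 10 fitted lineages, and SLC44A5 and MSMB in 3 each. Of 35 tests there, 0 passed an adjusted p of 0.05 (edgeR) and 5 had an unadjusted p under 0.05, where 2.22% of all genes were called. The lowest adjusted p was that of GNG11 in endocrine-like cells, higher in WT at term than at 120 days (log2 change 2.04 ± 0.56, SE, adjusted p = 0.0619, edgeR). The levels of these groups, given above, overlapped, and the highest lamb at term stood well above the others. Among the 5 was also MSMB in endocrine-like cells, lower in 120-day WT than in 80-day non-CF fetuses (log2 change -2.98 ± 0.77, SE, adjusted p = 0.0810, edgeR).

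The neighbours of the 3 genes on the chromosome, 3 named genes on either side in a RefSeq table of the sheep assembly ARS-UI_Ramb_v3.0, were read in ducts as well. Next to GNG11, BET1 (a vesicle transport protein) had log2 differences between CF and control groups of 0.00 to 0.45 and CASD1 (a sialic acid acetyltransferase) of -0.49 to 0.01, both far from those of GNG11. COL1A2, a stromal collagen, ranged from -4.58 to 0.95 and did not pass. GNGT1, a gamma subunit of the G protein of photoreceptors and the gene beside GNG11 on that side, was too low to be tested. It had no UMI in ducts of non-CF fetuses at 80 days or of WT at 120 days, while clones had 0.720 to 2.08 CPM at 80 days (29 UMIs) and 0.684 to 1.71 CPM at 120 days (31 UMIs) and the twins 0.196 and 1.16 CPM (6 UMIs). At term GNGT1 was at 0 to 1.09 CPM in WT, 0.504 and 0.795 CPM in naturally bred CF and 1.55 CPM in the clone. TFPI2, an inhibitor of serine proteases that is 1 gene further away, differed in the direction of GNG11 as well. Its duct level was 0.73 to 3.07 CPM in non-CF fetuses and 21.8 to 28.3 CPM in clones at 80 days, 0.92 to 15.5 CPM in WT, 30.3 to 134 CPM in clones and 16.2 to 20.0 CPM in the twins at 120 days, and 0 to 67.4 CPM in WT, 44.5 to 61.3 CPM in naturally bred CF and 31.4 CPM in the clone at term. None of these differences passed (adjusted p = 0.107 at 80 days, 0.203 and 0.699 at 120 days for clones and twins, 0.541 and 0.758 at term for naturally bred CF and the clone, edgeR), and WT donor 2, which was high for GNG11 at term, was also the WT lamb with 67.4 CPM of TFPI2.

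Beside SLC44A5, RABGGTB (a subunit of the enzyme that puts lipid groups on RAB proteins) differed from controls in the opposite direction in clones, but not in naturally bred CF animals. Its duct level was 6.53 to 19.2 CPM in non-CF fetuses and 41.3 to 49.2 CPM in clones at 80 days, a log2 difference of 2.36 ± 0.40 (SE, adjusted p = 0.00421, edgeR) that passed in all 18 alternatives (adjusted p = 9.9e-06 to 0.0481, edgeR), where 1.43% of all genes were called. At 120 days RABGGTB stood at 33.5 to 66.3 CPM in clones, 9.98 to 11.8 CPM in the twins and 9.03 to 24.5 CPM in WT. The log2 difference from WT was 1.46 ± 0.38 (SE, adjusted p = 0.126, edgeR) for clones and -0.69 ± 0.47 (SE, adjusted p = 0.575, edgeR) for the twins, so neither passed. At term the WT range of 14.0 to 63.1 CPM covered that of all CF lambs, with a log2 difference of -0.58 for naturally bred CF. CRYZ, TYW3 and MSH4 did not pass in any of the 5 comparisons of CF with control groups. MSMB overlaps NCOA4 in that table, and whether reads of one were counted to the other was not tested. NCOA4, a carrier that brings ferritin to the lysosome, was at 45.8 to 81.9 CPM over the 23 animals and did not pass in any of these comparisons.

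Genes whose duct level was most like that of a member over the 23 animals were ranked by Pearson's r of log2(CPM + 1), a description in which animals share age, genotype and depth. For GNG11 these were LOC101113780 (r = 0.895), CAPG (0.874), GJA1 (0.868), TFPI2 (0.868) and WFDC2 (0.866). GJA1, the gap junction protein connexin 43, had a mean of 29.5 CPM in 80-day clones and 4.81 CPM in non-CF fetuses, and 41.3 CPM in naturally bred CF and 5.59 CPM in WT lambs at term. WFDC2, a secreted protein with whey acidic protein domains, had 132 against 30.5 CPM and 283 against 29.5 CPM in the same groups.

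For SLC44A5 they included CDK19 (r = 0.852), CADM1 (0.819), ZNF672 (0.818) and LOC105609715 (0.818). CDK19, a kinase of the Mediator complex, had 128.9 CPM in non-CF fetuses and 70.1 CPM in clones at 80 days, a far narrower gap than that of SLC44A5. LOC105609715 had 37.1 and 5.35 CPM in the same groups, 15.3, 7.38 and 13.9 CPM in WT, clones and twins at 120 days, and 5.04 CPM in WT against 0.618 and 0.982 CPM in naturally bred and cloned CF lambs at term. For MSMB they were NNT (0.868), LOC105604131 (0.867), AHCYL2 (0.863), LOC105608219 (0.863) and C20H6orf136 (0.857). NNT, a mitochondrial enzyme that makes NADPH, had 128 CPM in WT and 51.7 CPM in naturally bred CF lambs at term, a narrower gap than that of MSMB.

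Lists of genes related to the 3 are given by their counts. Of 16 other beta and gamma subunits of G proteins, 8 were tested in ducts. In the 80-day clones 1 rose (GNB5, 0.93 ± 0.16 on the log2 scale, SE, adjusted p = 0.00339, edgeR, lost without the 2 HZ fetuses and after thinning) and 7 did not pass, where 1.43% of all genes were called, with a median log2 difference of 0.21 over the list and -0.00 over all genes. By DESeq2 2 passed there, and 2 had an unadjusted p under 0.05 by edgeR. In cloned CF against WT at 120 days, where 0.0699% of all genes were called, 0 passed (edgeR, and 0 by DESeq2), with 0 at an unadjusted p under 0.05. In the twins against WT (0.00699% of all genes called) and in clones against the twins (1.77%) 0 passed as well (edgeR, and 0 by DESeq2), with 1 at an unadjusted p under 0.05 in each. GNG2 (LOC101106689) rose at term in naturally bred CF (2.43 ± 0.59, SE, adjusted p = 0.0390, edgeR) and in the clone (3.39 ± 0.66, SE, adjusted p = 0.00739, edgeR), where 1.61% and 2.63% of all genes were called. Its level was 2.52 to 7.64 CPM in WT lambs, 13.4 to 39.2 CPM in naturally bred CF and 45.4 CPM in the clone. At 80 days GNG2 had 22.8 to 29.1 CPM in clones and 1.54 to 13.5 CPM in non-CF fetuses. These did not overlap, as for 8.69% of all genes that were higher in clones, and GNG2 did not pass there (edgeR). The term call in naturally bred CF was lost in 7 of 16 alternatives. These were the fits without CF donor 2 or without WT donor 1, 3 or 4, with only the 2 groups fitted, after thinning and with the donor number as a block. That in the clone was lost with the donor number as a block. With age GNB5 rose in both steps of non-CF and WT ducts (0.79 and 0.69 on the log2 scale, adjusted p = 0.0159 and 0.0315, edgeR), and from 80-day to 120-day clones GNG2 fell by 2.18 and GNG12 (LOC101115838) rose by 1.32 on the log2 scale (adjusted p = 0.0239 and 0.0281, edgeR), where 1.04%, 0.957% and 4.3% of all genes were called. The GNB5 calls were lost in 4 of 18 and 10 of 17 alternatives. Between the clones the GNG2 and GNG12 calls were lost in 6 of 17 alternatives each, among them every fit without 1 clone of 80 days.

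Of 16 genes of choline transport and phosphatidylcholine synthesis 15 were tested. In cloned CF against non-CF at 80 days 0 passed (edgeR, 1 by DESeq2), with 1 at an unadjusted p under 0.05, and 1.43% of all genes were called. In clones against WT at 120 days 0 passed (edgeR, 1 by DESeq2), with 3 at an unadjusted p under 0.05, and 0.0699% of all genes were called. The sole call between genotypes was SLC44A4, a transporter of the same family, in naturally bred CF lambs, where 1.61% of all genes were called. It had 57.0 and 65.9 CPM against 1.89 to 15.5 CPM in WT (log2 difference 3.13 ± 0.50, SE, adjusted p = 0.00434, edgeR). That call remained past the threshold in each of the fits without 1 WT lamb. It was lost with only the 2 groups fitted (adjusted p = 0.126, edgeR). In the cloned lamb SLC44A4 had 26.0 CPM. SLC44A5 was near 0 in both genotypes at term. At 80 days SLC44A4 had 16.8 to 22.7 CPM in clones and 2.31 to 8.70 CPM in non-CF fetuses. At 120 days it had 3.42 to 25.9 CPM in clones, 7.89 and 8.61 CPM in the twins and 3.14 to 4.57 CPM in WT. None of these differences passed (edgeR).

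Of 19 genes for secreted epithelial proteins and binding partners of MSMB 11 were tested. None passed in clones against controls at 80 days (edgeR, 1 by DESeq2, 1 at an unadjusted p under 0.05) or at 120 days (edgeR, 0 by DESeq2, 1 at an unadjusted p under 0.05), where 1.43% and 0.0699% of all genes were called. In naturally bred CF lambs 3 rose and none fell. These were WFDC2 (3.29 ± 0.64 on the log2 scale, SE, adjusted p = 0.0112, edgeR), PIGR, the receptor that carries IgA across epithelia (1.86 ± 0.34, SE, adjusted p = 0.00767, edgeR), and MUC1, a membrane mucin (1.82 ± 0.39, SE, adjusted p = 0.0207, edgeR), and 1.61% of all genes were called there. All 3 calls were lost without CF donor 2 and with only the 2 groups fitted, and that of MUC1 also without WT donor 1 or 3. In the cloned lamb against WT 1 rose and none fell, WFDC2 (3.47 ± 0.73 on the log2 scale, SE, adjusted p = 0.0132, edgeR), where 2.63% of all genes were called. That call was lost in 2 of 14 alternatives, 1 of them the fit of only the 2 groups. The median log2 difference over the 11 genes was 0.54 in naturally bred CF and -0.88 in the clone, opposite in sign. With age, PIGR was the 1 gene of the list called from 80-day non-CF to 120-day WT, where it rose by 1.96 ± 0.37 on the log2 scale (SE, adjusted p = 0.0126, edgeR) and 1.04% of all genes were called. From 120 days to term in WT the 1 call was CRISPLD1, a secreted protein of the CRISP family. It fell by 2.72 ± 0.53 on the log2 scale (SE, adjusted p = 0.0139, edgeR), beside 0.957% of all genes called. The call was lost without WT donor 1 or 2 of 120 days and with only the 2 groups fitted. From 80-day to 120-day clones PIGR rose by 2.21 and TFF1, a trefoil peptide of mucous epithelia, by 4.22 on the log2 scale (adjusted p = 0.00268 and 0.0147, edgeR), and CRISPLD1 fell by 1.37 (adjusted p = 0.0439, edgeR, lost in 10 of 17 alternatives), beside 4.3% of all genes called. The TFF1 call was lost without clone 1 or 3 of 80 days, after thinning and with only the 2 groups fitted. These genes were named after their values were seen, since the rule for naming list genes looked at 120-day clones, where none was called.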

How the data were processed

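The authors aligned and counted the libraries with Cell Ranger 3.1.0 (genome Oar_v4.0, 10x Genomics 3′ chemistry) and deposited UMI counts per gene and called barcode, not normalized. Here barcodes were kept by the thresholds above. A cell took the lineage with the highest mean log2(1 + UMIs per 10000) over its markers, as a share of the mean of the 200 highest cells, if that was at least 0.35 with at least 3 markers seen. Doublets were kept. Counts were summed per animal and lineage (at least 20 cells) and fitted over all 8 groups with edgeR 4.0.16 in R 4.3.3 (TMM, filterByExpr, quasi-likelihood test, no covariates), with Benjamini-Hochberg adjustment over all genes and a threshold of 0.05. Each SE of a log2 change is the size of that change divided by the square root of the F statistic of its edgeR test. It was not estimated directly and is least sure where a group has almost no counts. The fits were tested on simulated counts. DESeq2 1.42.0, Leiden clusters, a stricter gate and others served as alternatives. Named genes were the 3 members, 3 chromosomal neighbours on either side, 5 genes of highest r with a mean of at least 5 CPM, and up to 3 called genes of each context list in clones against WT at 120 days. A gene that the rule names is not reported here. Members and lists were chosen with earlier results of these data known. Donor numbers in the labels did not pair animals: over 33 same-numbered pairs the correlation of deviations was -0.216 to 0.158, above 0.1 in 2.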

Additional observations from a re-analysis of the deposited data

Results flagged for a closer look

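In groups of 4 animals, the level of each gene was checked for 1 animal far from the other 3 by Dixon's test. Of 35 such sets 10 held one. Chance gives about 1 in 20 for normal values, but in 4 of the 10 the other 3 animals had no UMI, where any UMI in the fourth is picked out by the test's construction, so the 10 are not set against that rate. WT donor 2 at term had 42.8 CPM of GNG11 in duct-like cells (next 1.56 CPM), and in acinar-like cells 7.10 CPM of GNG11 (next 0.540 CPM) and 1.59 CPM of MSMB (next 0.222 CPM). Non-CF donor 2 at 80 days had 5.38 CPM of GNG11 in duct-like cells, from 7 UMIs. The other 6 rest on 1 to 7 UMIs each. For SLC44A5 they were 2.39 CPM in stromal-like cells of non-CF donor 3 at 80 days, 8.22 CPM in stromal-like and 1.60 CPM in mural-like cells of cloned CF donor 3 at 120 days, and 4.90 CPM in endothelial-like cells of non-CF donor 2 at 80 days. For MSMB they were 0.287 CPM in stromal-like cells of non-CF donor 4 at 80 days and 1.05 CPM in endothelial-like cells of WT donor 4 at term.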

How the results depend on the processing

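Counts of UMIs limit SLC44A5 at term and MSMB in 80-day clones, where no group had over 11 and 3 UMIs, and groups of 2 and 1 animals limit the naturally bred CF and the cloned term groups. Where an animal left out leaves 1 in its group, that animal is assumed to vary like the other groups. Littermates were fitted as separate animals, days of processing are not given in the sources used here, and the age changes of the members in ducts are given without a test. The paper names more than 1 kit version, more than 1 digestion enzyme and collection over several breeding seasons. It does not say which libraries had which, so whether these differed between groups could not be checked. The causes of the changes given here were not tested.

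From 80-day non-CF to 120-day WT ducts SLC44A5 was -1.75 without the low-count filter, -1.79 with only the 2 groups fitted, -1.78 in Leiden clusters and -1.77 by DESeq2, and ranged from -2.12 to -1.50 with 1 animal left out. From 120 days to term in WT it was -2.74 with only the 2 groups fitted, -2.70 in a stricter gate and -2.35 after thinning, and ranged from -3.17 to -2.33 with 1 animal left out, while MSMB was 1.83 with only the 2 groups fitted. GNG11 in that step ranged from -3.39 to 2.43 and turned negative without WT donor 2 of term. From 80-day to 120-day clones SLC44A5 was 3.29 with only the 2 groups fitted and 2.55 after thinning and ranged from 2.94 to 3.55 with 1 clone left out, and MSMB was 3.41 with all deposited barcodes and ranged from 3.66 to 5.35.

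With the donor number as a replicate block, although the numbers pair no animals, SLC44A5 gave -2.81 from 120 days to term in WT and 3.14 from 80 to 120 days in clones, MSMB gave 4.30 from 80 to 120 days in clones, and MSMB gave -4.70 in the cloned lamb against WT. Genes called under the block were 75, 69 and 196 in these 3 steps of age, against 149, 137 and 616.

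Without the low-count filter 260 genes were called in the first step. With only the 2 groups fitted 560, 44 and 163 were called, in Leiden clusters 883, 259 and 1287, by DESeq2 482, 366 and 1038, with all deposited barcodes 310 and 211 in the first and second steps, after thinning 334 in the third and without the HZ fetuses 12 in the first. With 1 animal left out they ranged from 46 to 114, 48 to 197 and 55 to 1146.

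Between genotypes the members moved as follows. GNG11 gave 6.36 at 80 days after thinning, 6.08 in 120-day clones without likely doublets, and 5.30, 5.37 and 5.51 in the twins in a stricter gate, in Leiden clusters and without likely doublets. With 1 lamb left out it ranged from 3.54 to 9.94 in naturally bred CF and from 4.88 to 10.59 in the clone at term. SLC44A5 gave -5.86 with all deposited barcodes and -5.89 after thinning at 80 days, -0.00 (-0.0049) after thinning in the twins, and -3.05 in a stricter gate and -1.70 after thinning in the cloned lamb, and ranged from -1.97 to -1.03 in naturally bred CF at term. MSMB gave -3.36 with all deposited barcodes at 80 days, where it ranged from -5.65 to -3.20 with 1 fetus left out, and -4.74 with all deposited barcodes and -7.66 after thinning in the cloned lamb. In naturally bred CF it ranged from -9.44 to -2.96 at term and from -1.10 to 0.14 at 120 days, turning in sign without donor 5.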

Other observations

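RABGGTB, the neighbour of SLC44A5, was also read in 5 other lineages, after its duct values were seen, and is given here as values. At 80 days its level was 33.7 to 36.7 CPM in acinar-like cells of the 3 clones and 7.91 to 24.4 CPM in those of the 4 non-CF fetuses, 66.1 to 73.8 against 15.2 to 51.5 CPM in endocrine-like cells and 36.8 to 53.4 against 11.3 to 29.7 CPM in stromal-like cells. In endothelial-like cells, 17.6 to 47.4 CPM in clones overlapped with 10.6 to 19.6 CPM, and in mural-like cells 32.2 to 46.1 CPM overlapped with 6.56 to 43.1 CPM. At 120 days clones had 29.9 to 45.2 CPM of RABGGTB in stromal-like cells, the naturally bred CF twins 9.99 to 10.0 CPM and WT 11.3 to 22.5 CPM. At term the WT lambs spread from 9.25 to 70.8 CPM in acinar-like cells, a range that held the cloned lamb (23.4 CPM). In duct-like cells at 120 days RABGGTB was higher in clones than in the twins by 2.15 on the log2 scale (adjusted p = 0.0316, edgeR), a call lost without clone 2 or either twin.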
